A study of Homo sapiens with 6 samples.

Results

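The alcohol, aldehyde and retinol dehydrogenases and the aldo-keto reductases are the enzymes that move a carbonyl carbon between alcohol, aldehyde and acid. Members were taken by gene symbol: ALDH followed by a family number, letter and member number, ADH followed by a number and at most 1 letter, AKR of families 1 and 7, DHRS with a number and RDH with a number, leaving out rows described as pseudogenes. This rule gave 54 members among the 27685 genes of the table, with 18 ALDH, 7 ADH, 12 AKR, 9 DHRS and 8 RDH genes. The symbol pattern does not take ALDH2, the mitochondrial enzyme that clears acetaldehyde, and its values are given beside the members.

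RNA was sequenced from Caco-2, a human colorectal tumour cell line that takes on features of small intestinal enterocytes in culture, in 2 groups of 3 libraries. The vector control cells carry the plasmid pcDNA3 and have the genotype label WT, and the other cells carry an antisense construct against human FABP1 and have the label FABP1_knockdown. FABP1 is the fatty acid binding protein of liver and intestine. No drug or other treatment is named in the labels, and neither the number of cell lines or clones behind each group nor separate cultures are described. A difference between lines therefore cannot be told apart from the construct. For the same reason p-values reflect no more than how far these 6 libraries scatter, and that scatter may be technical. Libraries are called by group and by the number in their column header (2, 3 and 4 in each group). Each held 40351394 to 57979037 counts, and levels are given as CPM, counts scaled to the library's TMM-adjusted total.

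FABP1 itself did not separate the groups. Its level was 138, 102 and 121 CPM in vector control libraries 2, 3 and 4, while the libraries with the FABP1 antisense label had 134, 147 and 122 CPM. The groups overlapped, with a difference of 0.16 on the log2 scale (95% interval -0.10 to 0.42, SE 0.12, adjusted p = 0.268, edgeR quasi-likelihood test). The sources used here do not give whether strand entered the counting, so reads of an antisense construct may be among these counts. They are also RNA counts, and FABP1 protein was not measured here. Whether FABP1 was knocked down was therefore not tested. Antisense is used only as a label here ("antisense libraries"), and every direction given is that of the libraries so labelled against the vector control. Of 12 markers of intestinal epithelium, 8 were higher and 1 was lower in the antisense libraries. Their summed level, carried mostly by KRT8 and KRT18, was 13492 to 16404 CPM in the control and 15671 to 18373 CPM in the antisense libraries. The enterocyte markers SI, LGALS4 and KRT20 were under 1 CPM in every control library, with means of 0.255, 0.455 and 0.587 CPM, and had means of 22.3, 12.8 and 5.35 CPM in the antisense libraries. CDH17 went from 320 to 797 CPM and CDX2 from 77.0 to 164 CPM, while VIL1, the marker that fell, went from 507 to 441 CPM. These markers moved with the groups, and their part in the members' results was not tested.

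Background on these enzymes helps in reading the members. ADH and RDH or DHRS enzymes oxidise alcohols such as ethanol and retinol to aldehydes, or run in the reverse direction, while ALDH enzymes oxidise aldehydes to acids, an irreversible step that yields acetic acid from acetaldehyde and retinoic acid from retinaldehyde. Aldo-keto reductases use NADPH to reduce sugars, lipid aldehydes, quinones, steroids and prostaglandins to alcohols. In the small intestine these enzymes handle dietary retinoids, alcohols and reactive aldehydes, and several AKR genes are widely used targets of the transcription factor NRF2.

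The 4 AKR1C genes lie next to each other and encode hydroxysteroid dehydrogenases so alike that reads may be shared between them. They are shown here because AKR1C1 and AKR1C2, the most alike pair among them, changed by different amounts. The stretch of the coding sequence below, from base 103 to base 162 counted from the A of the start codon (GENCODE v29 transcripts), holds 10 of the 19 bases at which AKR1C1 and AKR1C2 differ over 969 coding bases. Capitals mark the 16 positions at which any of the 4 genes differs.
AKR1C1: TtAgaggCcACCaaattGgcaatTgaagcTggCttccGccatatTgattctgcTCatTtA
AKR1C2: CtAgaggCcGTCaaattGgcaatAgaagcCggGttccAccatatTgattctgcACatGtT
AKR1C3: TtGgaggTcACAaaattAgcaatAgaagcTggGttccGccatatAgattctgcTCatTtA
AKR1C4: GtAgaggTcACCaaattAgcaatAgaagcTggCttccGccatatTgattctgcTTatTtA
Over the whole coding sequence, AKR1C1 and AKR1C2 were 98.0% identical, AKR1C1 and AKR1C3 91.4%, and AKR1C1 and AKR1C4 88.5%. AKR1C1 had 1 matched transcript, of 6.705 kb, with 6606 windows of 100 bases. Of these, 1136 or 17.2% also occurred in an AKR1C2 transcript, and 26.4% of the AKR1C2 windows occurred in AKR1C1. Most of that AKR1C1 transcript lies outside the 969 coding bases, so the 17.2% depends on its length and may understate how many reads match both. The remaining windows can separate these genes, but the sources used here do not give how reads matching both were counted.

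Of the 54 members, 41 passed the filter on low counts and 13 did not. Among the 41, 15 were higher and 14 lower in the antisense libraries at an adjusted p under 0.05 (edgeR quasi-likelihood test, Benjamini-Hochberg adjustment over all 14640 tested genes), and 12 did not pass. The called share of the members was 70.7%, beside 55% of all tested genes, of which 27.7% were higher and 27.3% lower. The 3 antisense libraries did not overlap the 3 control libraries for 35 of the 41, beside 62.7% of all tested genes. At least 2-fold changes were called upward in 7 members and downward in 3, where 8.8% and 6.12% of all genes had such calls. The median log2 fold change of the tested members was 0.13 (0.01 over all genes), and the median of its absolute size was 0.55 (0.36 over all genes). These are bulk measurements, in which fewer cells of a type and less RNA per cell cannot be told apart.

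By family the counts are small, and differences between families were not tested. Called shares were 78.6% for ALDH, 100% for ADH, 66.7% for AKR, 75% for DHRS and 42.9% for RDH, beside 55% of all tested genes. ALDH had 14 tested members, of which 7 rose and 4 fell, with a median log2 fold change of 0.18. ADH had 3 tested members, of which 1 rose and 2 fell (median -1.17). AKR had 9, with 3 up and 3 down (median 0.14), and the groups were apart for all 9, beside 62.7% of all tested genes. DHRS had 8, of which 2 rose and 4 fell (median -0.44). RDH had 7, of which 2 rose and 1 fell (median 0.21). Without control library 4, 4 RDH genes were higher, RDH13 and RDH16 being added.

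**Figure D1:**
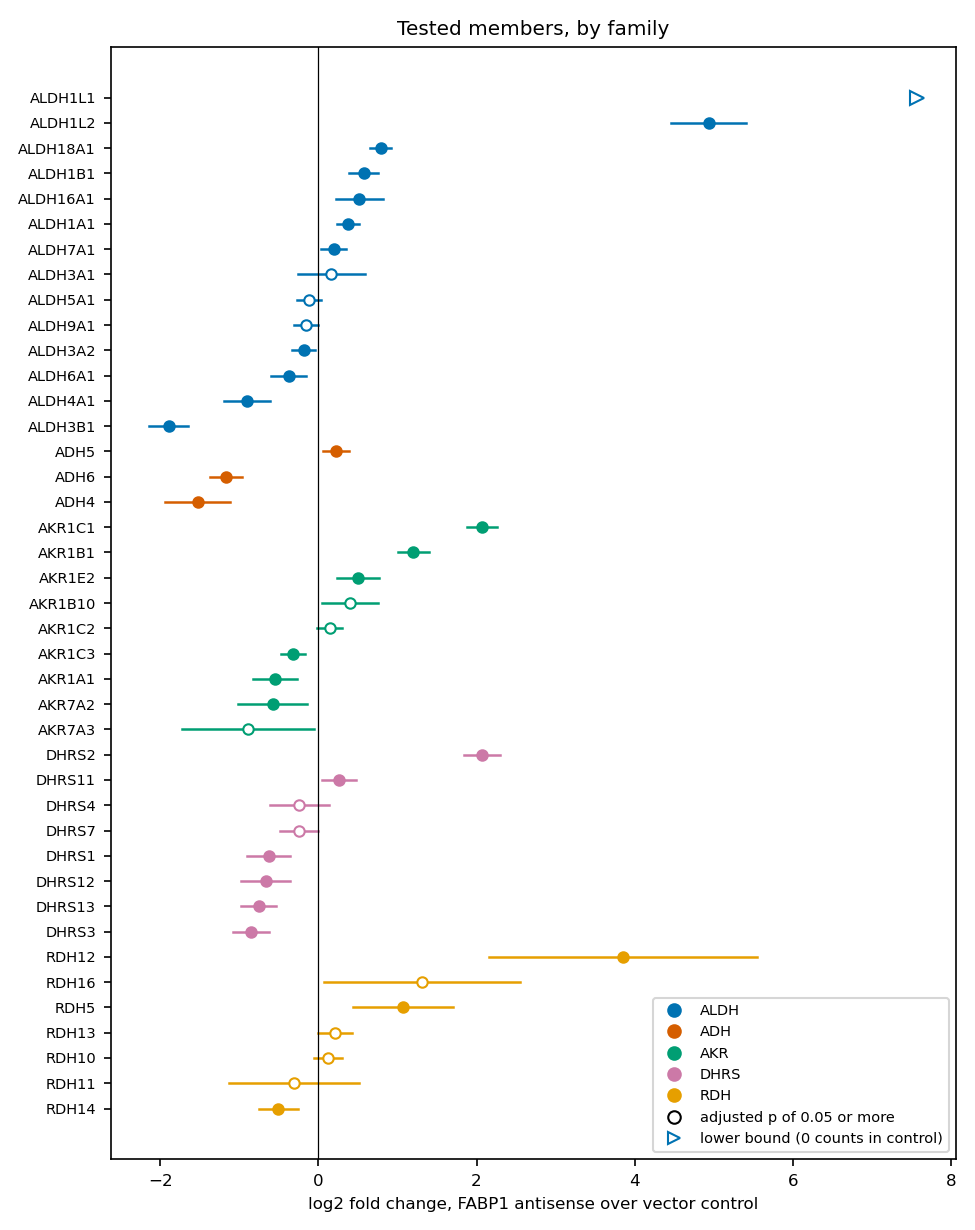
Log2 fold change (x axis, antisense over vector control) of the 41 tested members, grouped by family, with 95% intervals as bars. Filled points passed an adjusted p of 0.05, open points did not, and the open triangle is the lower bound for ALDH1L1; the points run from ALDH3B1 at -1.89 to ALDH1L2 at 4.93 and the bound.

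The folate enzymes of the ALDH family showed the widest separation. ALDH1L1 (Entrez 10840), the cytosolic 10-formyltetrahydrofolate dehydrogenase, had 0 counts in all 3 vector control libraries and 196, 164 and 215 counts in antisense libraries 2, 3 and 4, or 4.76, 3.67 and 3.82 CPM. The mean of 4.08 ± 0.591 CPM (SD, n = 3) was at least 191-fold higher than 3 counts over the whole control group would give (adjusted p = 4.94e-06, edgeR). ALDH1L2 (Entrez 160428), its mitochondrial counterpart, was at 0.208, 0.147 and 0.186 CPM in the control and at 5.22, 5.90 and 5.88 CPM in the antisense libraries. For both genes every antisense library was far above every control library. The mean of ALDH1L2 was 0.181 ± 0.0311 and then 5.67 ± 0.388 CPM (log2 fold change 4.93, SE 0.21, adjusted p = 2.52e-07, edgeR). The control level of ALDH1L2 rests on 26 counts in all. Antisense transcripts annotated at ALDH1L1 were at 0 counts or, in 1 antisense library, 0.0729 CPM.

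Retinoic acid is made from retinaldehyde by the ALDH1A enzymes. Of the 4 members listed here for that role, the ALDH1A genes and ALDH8A1, 1 passed the filter. ALDH1A1, the main cytosolic retinaldehyde dehydrogenase, was at 565, 579 and 542 CPM in the control and at 717, 701 and 766 CPM in the antisense libraries. Its mean was 562 ± 19.0 CPM in the first group and 728 ± 33.8 CPM in the second (log2 fold change 0.37, SE 0.06, adjusted p = 0.000989, edgeR), and the groups did not overlap. ALDH1A2 had no count in any library. ALDH1A3 and ALDH8A1, the others on this list, had 19 against 39 and 6 against 6 counts in control against antisense libraries, too few to be tested.

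Enzymes of acetaldehyde and lipid aldehyde oxidation changed in both directions. Over the list of 7 with this role, which includes ALDH2, 3 of the 6 tested rose and 2 fell, a called share of 83.3% beside 55% of all tested genes. ALDH3B1 (Entrez 221), a membrane-bound enzyme that acts on fatty and lipid aldehydes, was at 34.6, 28.3 and 35.8 CPM in the control and at 9.23, 9.10 and 8.27 CPM in the antisense libraries. Every antisense value lay far below every control value. ALDH3B1 fell from 32.9 ± 4.0 to 8.86 ± 0.523 CPM (log2 fold change -1.89, SE 0.11, adjusted p = 1.68e-06, edgeR), the largest fall among the tested members. ALDH3A2, the microsomal fatty aldehyde dehydrogenase, was at 134, 135 and 129 CPM against 118, 113 and 121 CPM (log2 fold change -0.18, SE 0.06, adjusted p = 0.0365, edgeR). That call was lost without any 1 library other than control library 4 (adjusted p 0.0409 to 0.143 over the 6 fits). ALDH3A1, the corneal and stomach isoenzyme, had a log2 fold change of 0.16 (SE 0.19, adjusted p = 0.486, edgeR), with overlapping groups, and ALDH3B2 had no count.

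The mitochondrial acetaldehyde enzymes were both higher. ALDH1B1, a mitochondrial enzyme of the intestine and liver, was at 54.0, 58.2 and 61.9 CPM in the control and at 91.7, 87.4 and 79.7 CPM in the antisense libraries (log2 fold change 0.57, SE 0.08, adjusted p = 0.000459, edgeR). ALDH2 was at 116, 108 and 120 CPM against 157, 153 and 138 CPM (log2 fold change 0.38, SE 0.08, adjusted p = 0.00315, edgeR). Neither gene overlapped between the groups.

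Of the 6 ALDH genes of amino acid and amine metabolism, 2 rose, 2 fell and 2 did not pass. This called share was 66.7%, beside 55% of all tested genes. ALDH18A1, the synthase that starts proline and ornithine synthesis from glutamate, was at 312, 325 and 323 CPM in the control and at 567, 556 and 532 CPM in the antisense libraries. The rise was from 319.7 ± 6.96 CPM to 552 ± 17.9 (log2 fold change 0.79, SE 0.06, adjusted p = 9.39e-06, edgeR), with tight values in both groups. ALDH4A1, which works in the opposite pathway and finishes the breakdown of proline to glutamate, was at 26.8, 24.7 and 31.9 CPM against 16.8, 15.1 and 12.8 CPM (log2 fold change -0.90, SE 0.13, adjusted p = 0.00041, edgeR). The proline synthesis gene was thus higher and the proline breakdown gene lower in every antisense library.

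The other enzymes of this role moved little. ALDH6A1, which acts in valine and thymine breakdown, fell by 0.37 on the log2 scale (SE 0.10, adjusted p = 0.00998, edgeR), and ALDH7A1, the lysine breakdown enzyme antiquitin, rose by 0.19 (SE 0.07, adjusted p = 0.042, edgeR). The ALDH7A1 call was lost without any 1 library other than control library 2 (adjusted p 0.0274 to 0.123 over the 6 fits). ALDH5A1, the succinic semialdehyde dehydrogenase of GABA breakdown, and ALDH9A1, which acts on aminoaldehydes, had log2 fold changes of -0.11 and -0.16 (adjusted p = 0.181 and 0.0691, edgeR). ALDH16A1, a member whose human protein lacks the catalytic cysteine, rose by 0.52 (SE 0.13, adjusted p = 0.00882, edgeR).

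Classical alcohol dehydrogenases split by class. ADH4 (Entrez 127), a liver enzyme that oxidises ethanol and retinol, was at 4.22, 5.41 and 3.84 CPM in the control and at 1.53, 1.63 and 1.51 CPM in the antisense libraries. It fell from 4.49 ± 0.819 to 1.56 ± 0.0654 CPM (log2 fold change -1.53, SE 0.18, adjusted p = 0.000141, edgeR). ADH6 (Entrez 130), a class V enzyme found in liver and stomach, was at 19.9, 21.4 and 19.1 CPM against 9.45, 8.39 and 8.98 CPM. It fell from 20.1 ± 1.17 to 8.94 ± 0.532 CPM (log2 fold change -1.17, SE 0.09, adjusted p = 8.89e-06, edgeR), and for neither gene did the groups overlap.

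ADH5, the glutathione-dependent formaldehyde dehydrogenase present in most cells, went the other way. Its level was 131, 117 and 123 CPM in the control and 151, 137 and 143 CPM in the antisense libraries (log2 fold change 0.22, SE 0.07, adjusted p = 0.0294, edgeR). Without control library 3 or 4, or antisense library 2 or 4, the ADH5 call was lost (adjusted p 0.0344 to 0.118 over the 6 fits). The ratio of ADH5 to ADH6 CPM was 6.17 ± 0.592 in the control and 16.1 ± 0.243 in the antisense libraries (SD, n = 3). Hepatocyte markers also differed between the groups: the summed level of a list of 6 was 2280 to 2546 CPM in the control and 1207 to 1369 CPM in the antisense libraries, with 1 marker higher and 2 lower. SERPINA1 went from 2251 to 1239 CPM and TTR from 183 to 65.3 CPM, while ALB was at 1.81 and 1.75 CPM. Their part in the ADH4 and ADH6 result was not tested.

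Aldose and aldehyde reductases formed a mixed group, with 2 up, 2 down and 2 not passing among 6 tested, and no overlap of the groups for any of them. The called share was 66.7%, beside 55% of all tested genes, and the groups did not overlap for 62.7% of all tested genes. AKR1B1 (Entrez 231), aldose reductase, was at 58.8, 52.6 and 62.4 CPM in the control and at 139.7, 137 and 122 CPM in the antisense libraries. The mean went from 57.9 ± 4.95 to 133 ± 9.32 CPM (log2 fold change 1.201, SE 0.09, adjusted p = 7.45e-06, edgeR). AKR1B10, a close relative that reduces retinaldehyde and is abundant in the small intestine, was at 4.36, 3.77 and 5.68 CPM against 5.88, 6.13 and 6.20 CPM (log2 fold change 0.40, SE 0.16, adjusted p = 0.0586, edgeR). This did not pass, but did without control library 4 (adjusted p = 0.00934). AKR1B15, the third gene of that cluster, had 22 counts in 1 antisense library and 0 in the other 5 libraries.

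AKR1A1 and AKR7A2 were lower. AKR1A1, the general aldehyde reductase, was at 49.9, 41.7 and 57.9 CPM against 37.0, 34.3 and 31.0 CPM (log2 fold change -0.55, adjusted p = 0.0052, edgeR). AKR7A2, the succinic semialdehyde reductase, was at 77.5, 52.7 and 58.7 CPM against 52.6, 42.6 and 31.7 CPM (log2 fold change -0.58, SE 0.19, adjusted p = 0.0311, edgeR), and its groups nearly met. Without control library 2, or antisense library 3 or 4, the AKR7A2 call was lost (adjusted p 0.0113 to 0.123 over the 6 fits). AKR7A3, an aflatoxin aldehyde reductase under 1 CPM in all libraries, had a log2 fold change of -0.89 (SE 0.37, adjusted p = 0.0691, edgeR; 0.0211 without antisense library 3). AKR1E2, an anhydrofructose reductase, rose by 0.50 (adjusted p = 0.00661, edgeR), from 7.45 to 9.83 CPM in the control to 12.4 to 13.2 CPM in the antisense libraries.

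**Figure D2:**
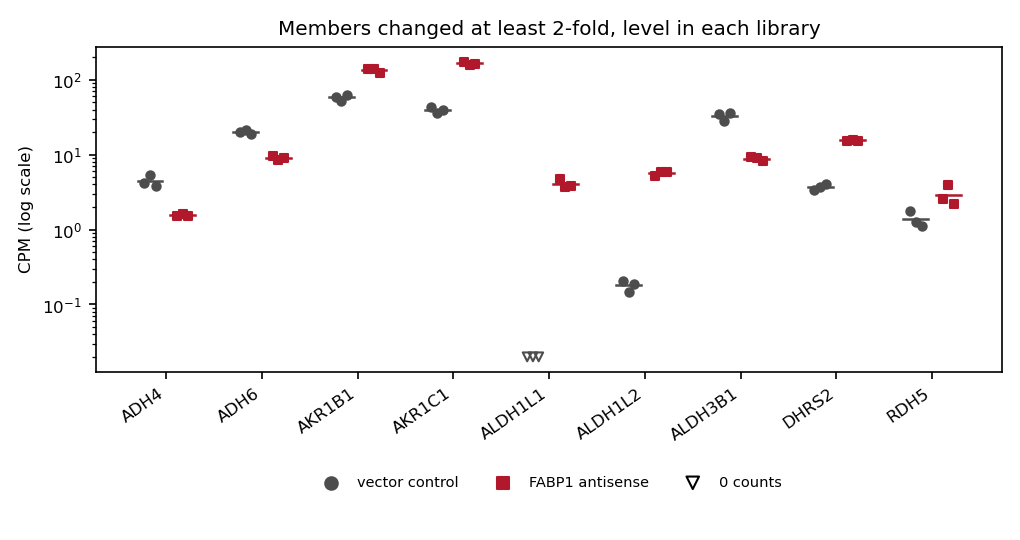
CPM on a log axis of the 9 members with a called change of at least 2-fold, no overlap and a mean of at least 1 CPM in a group; circles are the 3 vector control libraries, squares the 3 antisense libraries, lines the means, and open triangles 0 counts drawn at the bottom. ADH4, ADH6 and ALDH3B1 are lower and the other 6 higher in all antisense libraries, with RDH5 the most scattered (2.19 to 3.98 CPM).

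The steroid reductases of the AKR1C cluster, whose sequences are printed above, changed by unequal amounts. AKR1C1 (Entrez 1645), which inactivates progesterone, was at 42.9, 35.8 and 39.4 CPM in the control and at 174, 159 and 164 CPM in the antisense libraries. AKR1C2, which inactivates dihydrotestosterone and binds bile acids, was at 55.1, 50.8 and 51.2 CPM against 57.1, 56.0 and 60.4 CPM. AKR1C3, a prostaglandin and androgen synthase, was at 274, 262 and 254 CPM against 223, 208 and 203 CPM. Every antisense library was thus above every control library for AKR1C1 and, by a narrow margin, for AKR1C2, and below every control library for AKR1C3.

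The mean of AKR1C1 was 39.4 ± 3.54 and then 166 ± 7.47 CPM (log2 fold change 2.07, SE 0.09, 95% interval 1.88 to 2.26, 4.20-fold, adjusted p = 2.21e-07, edgeR). AKR1C2 had a log2 fold change of 0.14 (SE 0.07, 95% interval -0.02 to 0.30, adjusted p = 0.118, edgeR), which did not pass, and AKR1C3 fell by 0.32 on the log2 scale (SE 0.07, adjusted p = 0.00386, edgeR). The ratio of AKR1C1 to AKR1C2 CPM was 0.779, 0.705 and 0.769 in the control and 3.04, 2.84 and 2.72 in the antisense libraries. The ratio of AKR1C1 to AKR1C3 was 0.150 ± 0.0111 against 0.784 ± 0.0222 (SD, n = 3). Neither ratio overlapped between the groups. These ratios are not per length, so their change and not their size is to be read. AKR1C4, the liver form, had 9 control and 11 antisense counts, and AKR1D1, the steroid 5-beta-reductase, 3 and 7.

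**Figure D3:**
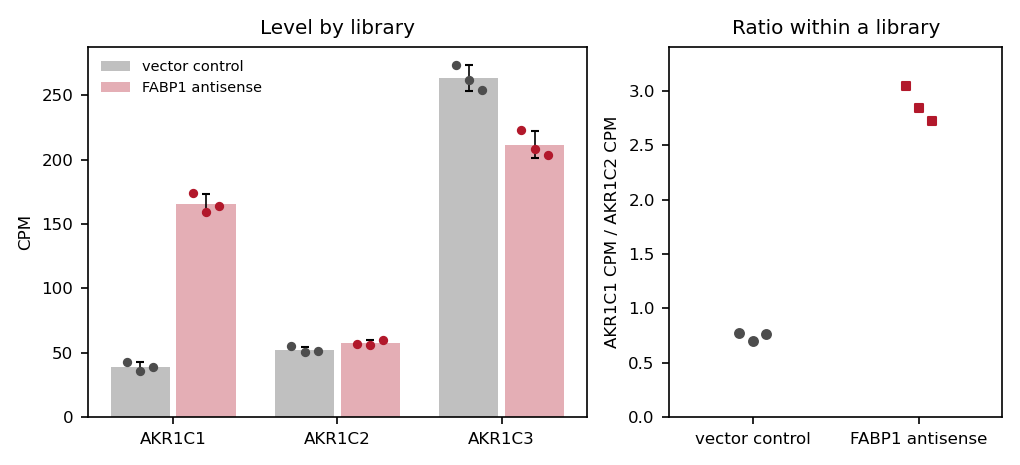
The left plot gives AKR1C1, AKR1C2 and AKR1C3 in CPM (bars, means of 3 libraries from 0; error bars, SD; points, libraries), and the right plot the ratio of AKR1C1 to AKR1C2 CPM in each library. The control ratios lie at 0.705 to 0.779 and the antisense ratios at 2.72 to 3.04.

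The sequence before the start of AKR1C1 is almost that of AKR1C2, which is why both are printed, although the genes moved by different amounts. RefSeq (GRCh38.p14) gives the 250 bases before each start as chr10:4963165-4963414 on the + strand for AKR1C1, chr10:5003858-5004107 on the - strand for AKR1C2 and chr10:5048531-5048780 on the + strand for AKR1C3. Capitals mark bases that do not face an identical base, for AKR1C1 and AKR1C2 when aligned with each other and for AKR1C3 when aligned with AKR1C1.
AKR1C1: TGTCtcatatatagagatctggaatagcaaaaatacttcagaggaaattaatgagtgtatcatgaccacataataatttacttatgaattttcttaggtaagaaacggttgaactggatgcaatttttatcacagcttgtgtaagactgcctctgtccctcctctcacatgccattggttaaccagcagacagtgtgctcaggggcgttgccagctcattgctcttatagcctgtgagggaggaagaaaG
AKR1C2: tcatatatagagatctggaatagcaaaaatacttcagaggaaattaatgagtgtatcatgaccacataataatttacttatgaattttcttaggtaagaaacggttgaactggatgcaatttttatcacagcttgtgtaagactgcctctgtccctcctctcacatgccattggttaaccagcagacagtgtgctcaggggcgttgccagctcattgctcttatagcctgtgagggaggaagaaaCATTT
AKR1C3: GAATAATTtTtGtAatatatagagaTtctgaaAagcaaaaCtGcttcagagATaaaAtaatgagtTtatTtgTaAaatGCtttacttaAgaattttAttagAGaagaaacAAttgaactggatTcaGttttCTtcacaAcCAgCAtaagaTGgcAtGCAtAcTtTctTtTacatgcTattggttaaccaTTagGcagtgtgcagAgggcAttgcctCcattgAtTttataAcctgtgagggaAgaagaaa
Of 246 aligned bases, 245 were identical between AKR1C1 and AKR1C2, in a single run. The AKR1C3 bases were 79.4% identical to those of AKR1C1 over 238 aligned positions.

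The antioxidant response element core TGACNNNGC, the letters bound by NRF2, was searched on both strands in the 250 bases before the start. It occurred in 5 of the 45 members with a promoter entry (AKR7A2, DHRS1, DHRS9, RDH13 and RDH14), or 11.1%, beside 11.03% of 27305 promoters in the table. None of the 12 higher members with an entry held it, AKR1C1 and AKR1B1 included, and 3 of 14 lower members did. The letters TGATGNAA, an element of the amino acid response read by ATF4, occurred before ADH6 and AKR1D1, the latter too low to be tested. This was 4.44% of the 45, beside 3.19% of all promoters and 1.44% of those of tested genes. ALDH1L2 had no promoter entry and was not searched for any of these elements. A retinoic acid response element of the DR5 type, a direct repeat spaced by 5 bases, was in none of the 45, and in 0.0769% of all. A match is a string of letters and not a shown binding site, and its absence holds for these letters in this window alone.

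Of the 11 short-chain members that oxidise retinol or reduce retinaldehyde, 9 were tested, of which 2 rose and 2 fell. This called share of 44.4% was below the 55% of all genes. DHRS3, a retinaldehyde reductase that returns retinaldehyde to retinol, was at 34.8, 28.1 and 34.1 CPM in the control and at 18, 19.1 and 16.8 CPM in the antisense libraries (log2 fold change -0.85, SE 0.10, adjusted p = 0.000159, edgeR). RDH14, which also acts on retinoids, was at 18.8, 17.8 and 17.5 CPM against 12, 14.7 and 11.4 CPM (log2 fold change -0.51, SE 0.11, adjusted p = 0.00383, edgeR). The groups did not overlap for either gene.

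The risen retinoid genes were low. RDH5 (Entrez 5959), the 11-cis-retinol dehydrogenase known from the eye, was at 1.75, 1.25 and 1.12 CPM in the control and at 2.57, 3.98 and 2.19 CPM in the antisense libraries. Its mean was 1.37 ± 0.336 in the control and 2.91 ± 0.944 CPM in the antisense libraries (log2 fold change 1.07, SE 0.28, adjusted p = 0.0105, edgeR). The read-through transcript BLOC1S1-RDH5, which contains RDH5 exons, was also higher, with a log2 fold change of 0.80, so reads of the pair may have been split in counting. RDH12, a retinaldehyde reductase of photoreceptors, had 4 counts in 1 control library and 0 in the others, against 17, 20 and 25 counts in the antisense libraries (log2 fold change 3.85, SE 0.74, adjusted p = 0.00228, edgeR).

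RDH11 and RDH10 did not pass. RDH11, a broad retinaldehyde reductase, was at 178, 76.4 and 158 CPM in the control and at 173, 77.3 and 83.0 CPM in the antisense libraries (log2 fold change -0.31, SE 0.36, adjusted p = 0.498, edgeR). Low and high libraries occurred in both groups, and the 95% interval of the difference ran from -1.13 to 0.51. RDH10, the main retinol dehydrogenase of retinoic acid synthesis in the embryo, had a log2 fold change of 0.13 (SE 0.08, adjusted p = 0.211, edgeR). RDH13, RDH16 and DHRS4 had log2 fold changes of 0.21, 1.305 and -0.24 (adjusted p = 0.0929, 0.0705 and 0.244, edgeR), and RDH8 had no count.

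DHRS2 (Entrez 10202), a mitochondrial and nuclear dicarbonyl reductase first described in hepatocyte-derived cells, rose most in its family. It was at 3.37, 3.75 and 4.01 CPM in the control and at 15.4, 15.7 and 15.3 CPM in the antisense libraries. The mean went from 3.71 ± 0.320 to 15.5 ± 0.183 CPM (log2 fold change 2.06, SE 0.10, 4.18-fold, adjusted p = 6.06e-07, edgeR). DHRS11, a steroid and prostaglandin reductase of the intestine, rose by 0.26 (SE 0.10, adjusted p = 0.0438, edgeR), with the highest control library just under the lowest antisense library. The DHRS11 call held without control library 4 or antisense library 4 and was lost without any 1 of the others (adjusted p 0.0203 to 0.144).

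DHRS1, DHRS12 and DHRS13 were lower. DHRS13 was at 55.6, 50.01 and 62.0 CPM against 35.2, 33.3 and 30.8 CPM (log2 fold change -0.75, SE 0.10, adjusted p = 0.000229, edgeR). DHRS12 and DHRS1 fell by 0.67 (SE 0.14) and 0.63 (SE 0.12) on the log2 scale (adjusted p = 0.00297 and 0.00229, edgeR). DHRS7, a reductase of the endoplasmic reticulum, had a log2 fold change of -0.25 (adjusted p = 0.0801, edgeR; 0.0184 without control library 3) with overlapping groups.

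Counts were too low to test for 13 members. ADH1A and ADH7, the class I liver and class IV stomach alcohol dehydrogenases, joined ALDH1A2, ALDH3B2 and RDH8 at 0 counts in all 6 libraries. ADH1C had 0 control counts and 13, 0 and 9 antisense counts, at least 7.29-fold higher than the floor of 3 counts over the control group. AKR1B15 gave the same bound of 7.29 from 1 library. ADH1B had 3 control and 0 antisense counts, and DHRS9, a retinol dehydrogenase of epithelia, 3 and 14. With 0 counts the floor was 0.0212 CPM over the control and 0.0211 CPM over the antisense group.

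Levels of different genes were compared per kilobase of the longest annotated transcript (GENCODE v29), since CPM grows with length. By this level ALDH1A1 was the highest member in both groups, at 267 CPM per kb in the control and 346 in the antisense libraries, and supplied 49.1% and 49.995% of the summed ALDH level. ALDH18A1 followed, with 95.2 and 164 CPM per kb, and its share of the ALDH sum went from 17.5% to 23.8%. The summed ALDH level was 543 ± 5.36 CPM per kb in the control and 691 ± 11.04 in the antisense libraries (SD, n = 3), without overlap. ALDH2, outside the symbol rule, is not in this sum or these shares, although it had means of 115 and 149 CPM.

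ADH5 supplied 83.6 ± 1.75% of the summed ADH level in the control and 93.2 ± 0.105% in the antisense libraries, as ADH6 went from 12.7% to 5.40% and ADH4 from 3.70% to 1.23%. The ADH sum itself was 56.6 ± 2.103 and 59.0 ± 2.92 CPM per kb, with overlapping groups. Within the AKR family, AKR1C3 went from 52.5 ± 2.83% to 40.7 ± 0.948% of the sum and AKR1B1 from 10.8 ± 0.739% to 24.0 ± 0.732%. AKR1C1 went from 2.11% to 8.60%, and its annotated transcript is long (6.705 kb). By the longest transcript AKR1C1 was below AKR1C2 in the control (5.87 against 13.9 CPM per kb) and above it in the antisense libraries (24.7 against 15.4), but with the median length AKR1C2 was at 35.4 and 39.1, above AKR1C1 in both. The AKR sum overlapped, at 278 ± 18.3 and 288 ± 19.2 CPM per kb. By the longest transcript, the makeup of these families thus shifted between groups whose sums overlapped. For AKR this overlap depends on the length used for AKR1C1, which had 1 matched transcript and so the same median length. The AKR sum with a shorter AKR1C1 transcript was not formed.

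Among the DHRS genes, DHRS7 had the highest level in the control (38.2 CPM per kb, 32.3 in the antisense libraries), and DHRS11 went from 21.5% to 29.8% of the sum. DHRS2 went from 1.67% to 8.01%, DHRS13 from 22.2% to 15.2% and DHRS3 from 14.3% to 9.18%. RDH11 gave 65.2 ± 10.3% of the RDH sum in the control and 60.2 ± 11.1% in the antisense libraries, so the RDH sum (79.3 ± 21.1 and 68.9 ± 20.0 CPM per kb) carried its spread. The sums of the DHRS genes were 131 ± 12.6 and 114 ± 8.94 CPM per kb, and overlapped.

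**Figure D4:**
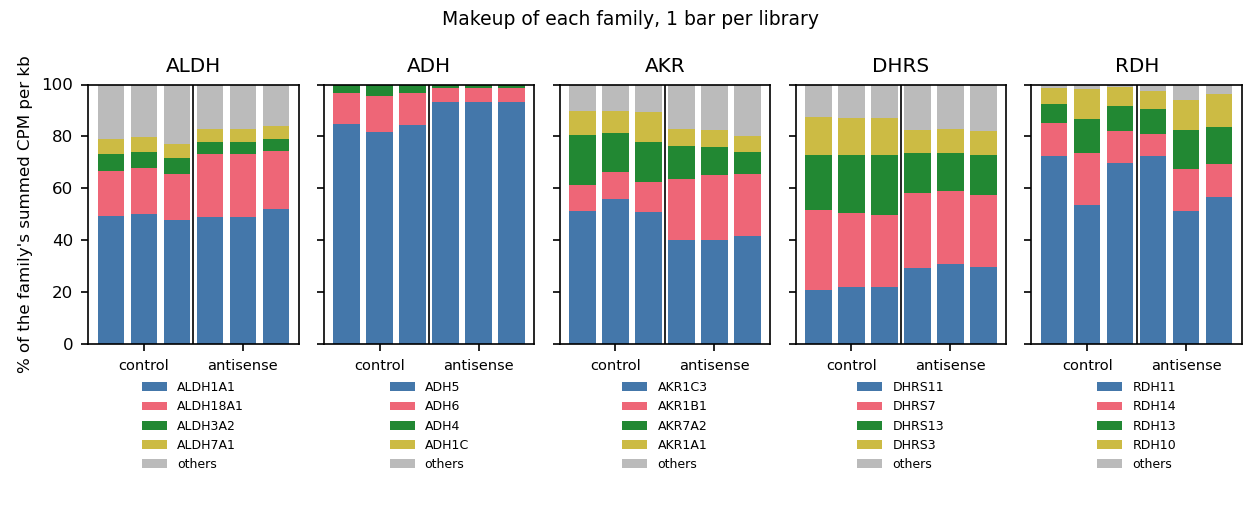
Share (%) of each family's summed CPM per kb by member, 1 bar per library, with the 3 vector control libraries left and the 3 antisense libraries right of the line, and members outside the top 4 in grey. ADH5 grows from 83.6% to 93.2% of the ADH sum, and AKR1B1 from 10.8% to 24.0% of the AKR sum, while the makeup of ALDH is led by ALDH1A1 in all 6 libraries. ALDH2, outside the symbol rule, is not in the ALDH sum.

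Some stretches of the gene order were shifted as a whole between the groups, so each member was set beside its neighbours. For 44 of the 54 members a running median of the log2 fold change of 100 neighbouring genes could be formed (RefSeq gene order of GRCh38.p14, leaving out genes whose mean log2 CPM was under 3). Of the 24 called members with such a value, 8 lay in a stretch whose median passed 0.28 in the same direction as the member. The share of all called genes in such stretches was not formed, so this count is not a result about the members. Members that lie close together share neighbours, so the 8 need not be in 8 separate stretches. The 5 lower ones were DHRS3 (running median -0.56), ALDH4A1 (-0.50), AKR7A2 (-0.49), AKR1A1 (-0.45) and DHRS12 (-0.32). The 3 higher ones were ALDH1L2 (0.49), RDH5 (0.34) and ALDH7A1 (0.30). In 7 of these 8 the member's own change was larger in size than the running median, and in ALDH7A1 it was smaller. That count says little, since these 8 were picked as called in the direction of their stretch, which favours large changes. The 95% interval contained the running median for AKR1A1 (-0.83 to -0.27), AKR7A2 (-1.01 to -0.14) and ALDH7A1 (0.03 to 0.35). For the others of these 8 it did not. The interval reflects the scatter of 1 gene over the libraries and not the spread of its neighbours. It therefore does not show whether a member departs from its stretch. The part of these stretches in the members' results was not tested.

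The other large changes stood among neighbours that changed less. ADH4 and ADH6 fell in a stretch with a running median of 0.24, close to the 0.22 of ADH5 beside them. ALDH3B1 fell by 1.89 where the running median was -0.18, AKR1B1 rose where it was 0.18 and ALDH1L1 where it was 0.17. The AKR1C genes lie too close to the end of their chromosome for a full window, and the median of the 10 nearest genes of AKR1C1 was 0.23.

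**Figure D5:**
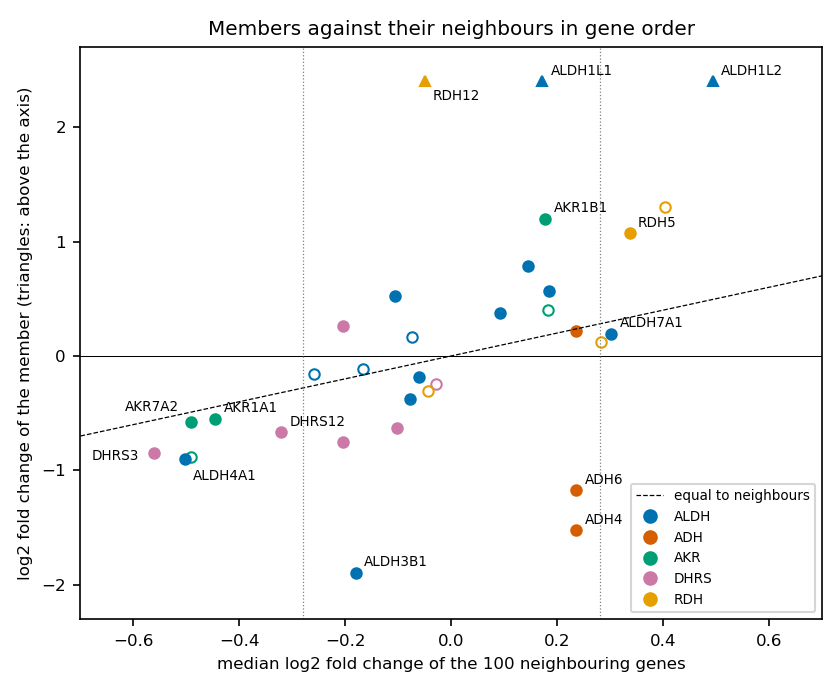
Log2 fold change of each tested member (y axis) against the median log2 fold change of 100 neighbouring genes (x axis), coloured by family, filled where called; dotted lines mark 0.28 either way, the dashed line equality, and triangles lie above the axis. DHRS3, ALDH4A1, AKR7A2, AKR1A1 and DHRS12 sit left of the lower dotted line with negative changes, while ADH4, ADH6 and ALDH3B1 lie far below the dashed line.

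Related genes outside the symbol rule gave a setting for the members. Of 27 genes for retinoid carriers, esterification, breakdown and receptors, 18 were tested, of which 7 were higher and 5 lower (median log2 fold change 0.29), a called share of 66.7% beside the 55% of all genes. The genes named from this and the following lists are those with the largest called changes and a mean of at least 1 CPM in a group. CRABP2, which carries retinoic acid to its nuclear receptor, fell from 62.3 to 8.01 CPM (log2 fold change -2.96, SE 0.17, adjusted p = 2.04e-06, edgeR), and the retinol uptake receptor STRA6 fell from 43.8 to 16.8 CPM (-1.38, adjusted p = 2.73e-06, edgeR). ISX, the intestinal homeobox factor that limits vitamin A uptake, rose by 1.11 on the log2 scale, and HSD17B6, a steroid and retinol dehydrogenase, by 1.52.

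The 24 genes of the NRF2 pathway other than AKR genes were all tested, with 7 higher and 8 lower (median -0.14), a called share of 62.5% beside the 55% of all genes. SLC7A11, the cystine importer, and FTH1, the ferritin heavy chain, rose by 1.29 and 1.07 on the log2 scale, and GCLM, of glutathione synthesis, and PIR both fell by 0.88. A difference between these genes and the AKR genes was not tested.

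Among 32 other carbonyl-reducing and short-chain dehydrogenases, 27 were tested, with 11 higher and 6 lower (median 0.09), a called share of 63.0% beside 55%. DHRS4L1, BDH2 and HSD17B11 rose by 1.33, 1.17 and 1.13 on the log2 scale, and the xylulose and diacetyl reductase DCXR fell by 0.93. Of 15 other genes of ethanol and aldehyde metabolism, 14 were tested, with 7 higher and 1 lower (median 0.26), a called share of 57.1% beside 55%, close to that of all genes. Without antisense library 3, 4 of them were higher. AOC1, the diamine oxidase of the intestine that releases an aldehyde from histamine and putrescine, went from 1.27 to 69.6 CPM (log2 fold change 5.76, SE 0.12, adjusted p = 1.46e-08, edgeR). AOX1, an aldehyde oxidase, rose by 2.21, the mitochondrial acetyl-CoA synthetase ACSS1 by 0.75 and catalase (CAT) by 0.66, and GSTA1 was the gene that fell, by 0.54.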

How the data were processed

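Processing, from the deposited values to the comparisons. Per the submitters' processing notes the authors used StringTie 1.3.4d, HISAT2 2.1.0, Bowtie2 2.3.4.1, Trimmomatic 0.38 and bcl2fastq with build GRCh37, in roles not listed there. Libraries were made with a stranded mRNA kit from TRIzol RNA, per the labels' protocols, and the sources used here do not give whether strand entered the counting. The deposited table holds raw read counts per gene, not normalized by the authors, and 12 other per-library columns were not used here. Columns name the group and a number from 2 to 4, while the labels number replicates 1 to 3, so columns were assigned to groups only.

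Counts were tested in R 4.3.3 with edgeR 4.0.16 (filterByExpr, TMM, glmQLFit and glmQLFTest) on the whole table of 27685 genes, with Benjamini-Hochberg adjustment over 14640 tested genes and a threshold of 0.05. The SE of a log2 fold change is its size over the square root of F. The biological coefficient of variation was 11.8%. Folds against a group at 0 counts are bounds against 3 counts over that group, which cover counting error only. Alternatives used DESeq2 1.42.0, other filters and scalings, a 1.5-fold threshold, a replicate block and leaving out each library. The tests were checked on simulated data in which 200 genes were changed. The share recovered was 56.7% at 1.5-fold, 78.8% at 2-fold and 93.9% at 4-fold, with 10 false calls among 14244 unchanged genes. Far fewer genes were changed there than were called in these data, so the check does not cover a change of that extent.

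Sequences and lengths came from GENCODE v29 (GRCh38) and RefSeq (GRCh38.p14), matched by accession or symbol: 54 members had a length and 45 a promoter entry. Identity between AKR1C genes was computed on coding sequences. Members and lists were chosen with earlier results of these data known. Full statistics were given for members with an adjusted p under 0.05, a log2 fold change of at least 1 in size, no overlap and at least 1 CPM. Of each related list up to 4 called genes with the largest changes and a mean of at least 1 CPM in a group were named, and genes named outside this rule were chosen after their values were seen. A result on 1 gene outside the members is not reported here.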

Additional observations from a re-analysis of the deposited data

How the results depend on the processing

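No called member reversed under any alternative tried. With a threshold of 1.5-fold tested by glmTreat, 7 members were higher and 5 lower (all genes: 1354 higher, 1035 lower, 2389 called). By family this left ALDH 3 higher and 2 lower, ADH 0 higher, AKR 0 lower, DHRS 1 higher and 1 lower, and RDH 1 higher and 0 lower. For the related lists it left retinoid genes 3 lower, NRF2 genes 3 higher and 3 lower, carbonyl genes 5 higher and 1 lower, and ethanol genes 2 higher and 0 lower. Without a filter on low counts 1 DHRS gene was higher, and with at least 1 CPM in 3 libraries 1 RDH gene was higher. Without the members shifted with their neighbours 9 members were lower, AKR 1 lower, DHRS 2 lower and RDH 1 higher.

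Leaving out 1 library gave 12 to 16 members higher and 12 to 14 lower (all genes: 3510 to 4108 higher, 3449 to 3951 lower). By family and list it gave ADH 0 to 1 higher, DHRS 1 to 2 higher, RDH 2 to 4 higher, and 4 to 6 ethanol genes higher. Of the 29 called members 24 kept their call in all 6 such fits, while ALDH3A2, ADH5, AKR7A2, ALDH7A1 and DHRS11 lost it in at least 1.

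Same-numbered columns of the groups did not deviate together (correlations 0.05, -0.28 and -0.37 over 10025 genes), so the numbers were not taken as pairs. Differently numbered columns had correlations from -0.28 (control 3 with antisense 2) to 0.44 (control 3 with antisense 4). Whether libraries were paired under other numbers was not tested. With a replicate block 6661 genes were called, 12 members were higher and 13 lower, and ALDH3A2, ADH5, ALDH7A1 and DHRS11 lost their calls, leaving ADH 0 higher and DHRS 1 higher. The cause was not tested for any of these. Scaling moved the median of all genes between 0.01 and 0.02 only. Per-kb levels depend on the transcript: with the median length the control level was 189 CPM per kb for AKR1C3 and 34.7 for AKR1B1.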

Other observations

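RDH11 had a within-group coefficient of variation, pooled over the 2 groups, of 44.0%, above that of 99.5% of 10025 genes (median 7.52%). Taken by group, it was 39.2% over the vector control and 48.4% over the antisense libraries. Control libraries 2 and 4 and antisense library 2 were high.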
